A study of Mus musculus with 6 samples.

Results

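Voltage-gated sodium channels, voltage-gated calcium channels, the hyperpolarization-activated HCN channels and the sodium leak channel gene Nalcn were examined in mouse hippocampus. The genes were taken by symbol from the deposited TPM table (a transcript level scaled to gene length and to the library total) and joined by gene identifier to the raw counts. The rule takes 37 of 55411 annotated genes and uses no measured value, but it was chosen with earlier results of these data known. Poly(A)-selected hippocampal RNA of offspring was sequenced in 3 control libraries, labelled vehicle control, and 3 CLO libraries, labelled as exposed to CLO (clothianidin, an insect nicotinic receptor agonist of the neonicotinoid class). Per the study description the exposure was paternal: male C57BL/6N mice received clothianidin at 50 mg/kg/day, its no-observed-adverse-effect level, and the protocol names offspring as the source of the RNA. The labels give no age, sex, sire or litter of the offspring and do not say that each library is a separate animal, so a p-value reflects only how far these libraries scatter, part of which may be technical. The control libraries held 25232305 to 26812580 counts and the CLO libraries 19637402 to 21189231.

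Sodium channel alpha subunits form the pore that drives the upstroke of the action potential, and beta subunits are small partners that bind it and affect its gating and placement. Calcium channel alpha1 subunits (Cacna1 genes) form the pore through which depolarization lets calcium into dendrites and nerve terminals, while cytoplasmic beta subunits (Cacnb) and extracellular alpha2delta subunits (Cacna2d) aid its delivery to the membrane. HCN channels open on hyperpolarization and carry a mixed cation current that sets resting potential and dendritic integration in pyramidal neurons. NALCN carries a background sodium leak.

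The pore-forming paralogs are alike in sequence, which bears on whether their reads can be told apart. Across the coding sequence of the GENCODE M21 transcript with the longest one, 11.3% of all 50-base windows of Scn2a occur identically in another sodium channel alpha gene, against 13.2% for Scn3a, 7.54% for Scn1a, 8.89% for Scn9a and 0.101% for Scn8a. The longest identical run was 188 bases between Scn1a and Scn2a and 37 bases between Scn1a and Scn8a. Counts of Scn1a, Scn2a, Scn3a and Scn9a are thus uncertain to the extent that reads lie within such runs, since how multi-mapping reads and strand were counted is unstated in the sources used here.

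The HCN genes are further apart. The stretch around their selectivity filter is shown with the codons of cysteine, isoleucine, glycine, tyrosine and glycine in capitals. The residues these codons encode line the pore. The sequences are the coding strand of the same kind of transcript, 5′ to 3′, placed on GRCm38, which is not the build of the deposited table, and each lies within 1 exon.
Hcn2, plus strand, chr10:79728923-79728994: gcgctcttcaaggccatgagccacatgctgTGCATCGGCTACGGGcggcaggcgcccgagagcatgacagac
Hcn3, minus strand, chr3:89150979-89151050: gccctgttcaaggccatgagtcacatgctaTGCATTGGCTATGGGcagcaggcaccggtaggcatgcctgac
Hcn4, plus strand, chr9:58855555-58855626: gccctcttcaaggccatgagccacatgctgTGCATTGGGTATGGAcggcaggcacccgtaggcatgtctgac

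These stretches of 72 bases differed at 14 positions between Hcn2 and Hcn3, 11 between Hcn2 and Hcn4 and 8 between Hcn3 and Hcn4. No 50-base window of an HCN coding sequence occurs in another, and the same held for the Cacnb, Cacna2d and Scn beta genes, while the share was at most 0.305% among the Cacna1 genes. Of the 37 genes, 8 overlap another annotated gene on the same strand, namely Scn9a, Cacna1c, Cacna1d, Cacna1s, Cacna2d1, Cacna2d3, Cacnb2 and Nalcn. The overlapping partner had at most 8 counts over all libraries in each case.

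Of the 37 genes, 32 passed the filter on low counts. The other 5 were the muscle genes Scn4a and Cacna1s, the sensory neuron genes Scn10a and Scn11a and the retinal gene Cacna1f. They had 54 counts in all 6 libraries together and at most 11 in any library. Scn10a had 0 counts in every library, which allows up to 3 counts per library, or 0.154 CPM at the shallowest. CPM values below are counts scaled to library size with TMM factors and not to gene length.

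Compared per length, a few beta subunit genes and Hcn2 stood above the pore-forming sodium and calcium channel genes. In deposited TPM these were Hcn2 (mean 135 over all 6 libraries), the calcium channel beta gene Cacnb3 (133), the sodium channel beta genes Scn2b (112) and Scn3b (70.5), and Cacnb1 (67.7). Hcn2 and Cacnb3 lay within each other's range between libraries.

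The most abundant pore-forming sodium channels on the same scale were Scn2a, a channel of excitatory axons, at a mean TPM of 22.6, and Scn8a, the main channel of mature initial segments and nodes, at 21.4. These 2 levels did not differ beyond their spread. Scn1a, known for its role in inhibitory interneurons, followed at 6.58 and Scn3a, which is prominent before birth, at 2.59. Scn7a, a gene of glia, was at 0.408 and Scn9a, a gene of sensory neurons, at 0.0980.

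Calcium channel pore genes were spread more evenly. In mean TPM the T-type genes Cacna1h (12.5) and Cacna1i (11.9), the P/Q-type gene Cacna1a (10.6), the N-type gene Cacna1b (9.49) and the R-type gene Cacna1e (9.40) lay within their spread of each other. The T-type gene Cacna1g was at 5.07 and the L-type genes Cacna1c and Cacna1d were at 2.86 and 1.67. The Cav2 genes (Cacna1a, Cacna1b, Cacna1e) held 46.7% ± 1.25 of the summed Cacna1 TPM in control and 45.8% ± 1.28 in CLO (SD, n = 3), and the T-type genes held 46.1% ± 1.04 and 47.0% ± 1.55.

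**Figure D1:**
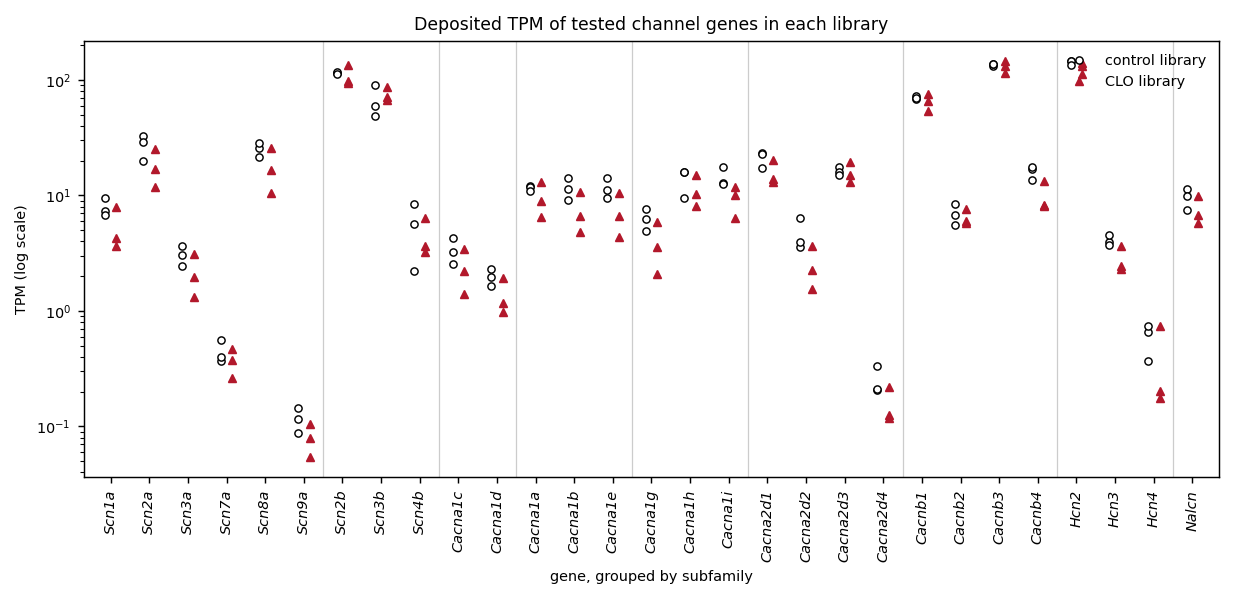
Deposited TPM (log scale) of tested channel genes in the 3 control libraries (open circles) and the 3 CLO libraries (triangles), grouped by subfamily. Hcn2, Cacnb3 and Scn2b lie highest, at means of 112 to 135 TPM, and the pore-forming Scn and Cacna1 genes lie lower, with Scn2a at a mean of 22.6.

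No channel gene passed the adjusted threshold of 0.05 between CLO and control in edgeR (quasi-likelihood test, Benjamini-Hochberg adjustment over 16129 genes), where 0.0% of all genes passed. The smallest adjusted p among the channel genes was 0.225, for Cacnb4. Even so, 25 of the 32 tested genes had a log2 fold change (CLO over control) below 0, against 51.8% of all genes tested, and the median was -0.44 against -0.01 for all genes. At an unadjusted p under 0.05, 11 channel genes were lower in CLO, where 7.26% of all genes were, and 0 were higher, where 6.18% were. By role, all 16 tested pore-forming genes of the sodium, calcium and leak channels were below 0 (median -0.45). The 8 beta subunit genes of both channel kinds had a median of 0.03, with Cacnb4 at -0.62. On the TPM scale Scn2b, Cacnb1, Cacnb2 and Cacnb3 were just below 0, but so was the median of all genes there. That median was -0.13 with 0.1 added to TPM before the log and -0.10 with 1 added. These roles also differ in length, with medians of 12744 bp and 4885 bp, and with the length trend described below removed their median log2 fold changes were -0.14 and 0.09. The difference between roles was not tested.

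The count at an unadjusted p under 0.05 leaned on single libraries. It was 1 without control replicate 2 (2.18% of all genes) and 2 without CLO replicate 3 (2.69%). It was 4 without CLO replicate 2 (3.16%), but 15 without control replicate 1 (12.1%) and 17 without CLO replicate 1 (12.1%). DESeq2 passed Cacnb4 alone (adjusted p = 0.0488), where it passed 1.26% of all genes. Without the filter on low counts 5 channel genes passed, Cacnb4, Cacna2d2, Cacna1b, Cacna1e and Cacna1g, all lower, where 2.56% of all genes passed. With sample quality weights in limma-voom 16 passed as lower and 1 as higher, where 22.1% of all genes passed.

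**Figure D2:**
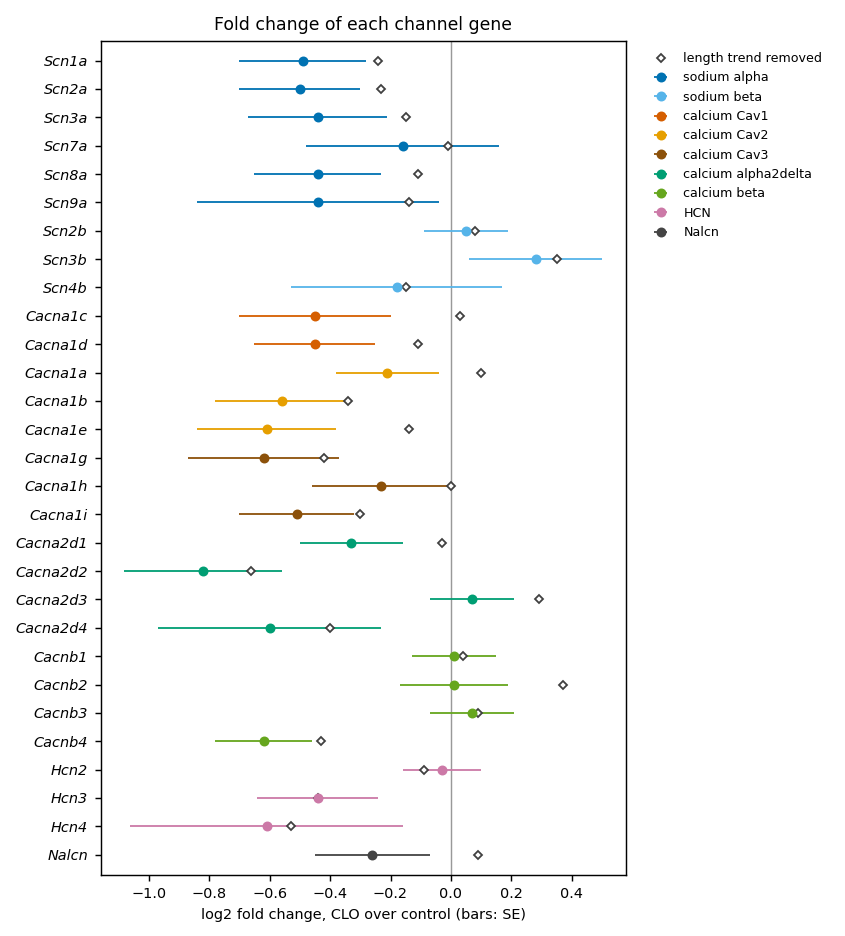
Log2 fold change of CLO over control for tested channel genes (filled circles, bars are SE) and the same after each library's trend with gene length was removed (open diamonds). Pore-forming genes lie left of 0 and most beta subunit genes near or right of it. On the TPM scale, which is not drawn, Cacnb1, Cacnb2, Cacnb3, Scn2b and Cacna2d3 were below 0. The median of all genes was also below 0 on that scale (-0.13 and -0.10 with 0.1 and 1 added).

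Gene length moved with these differences. The channel genes are long, with a median deposited length of 10017 bp against 4237 bp for all genes tested, and 22 of the 32 lie among the longest 3226 genes (7597 bp and more). Across all 16129 genes, which are not independent, the log2 fold change had a Pearson r of -0.50 with log2 length, and across the 32 channel genes it was -0.53. Of those 3226 genes, 82.1% were below 0, with a median log2 fold change of -0.25. The 22 channel genes there had a median of -0.45 with 20 below 0, and the other 10 had a median of -0.01 with 5 below 0.

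With each library's length trend removed, the median log2 fold change of the channel genes was -0.11 and 22 of 32 were below 0, against 50.6% of all genes. In that fit 3 channel genes were lower at an unadjusted p under 0.05 (Cacnb4, Cacna2d2 and Hcn3), where 5.58% of all genes were, and Cacna2d3 was higher, where 4.84% were. Of the 16 pore-forming genes 13 stayed below 0. Cacna1a, Cacna1c and Nalcn were above 0 in that fit.

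**Figure D3:**
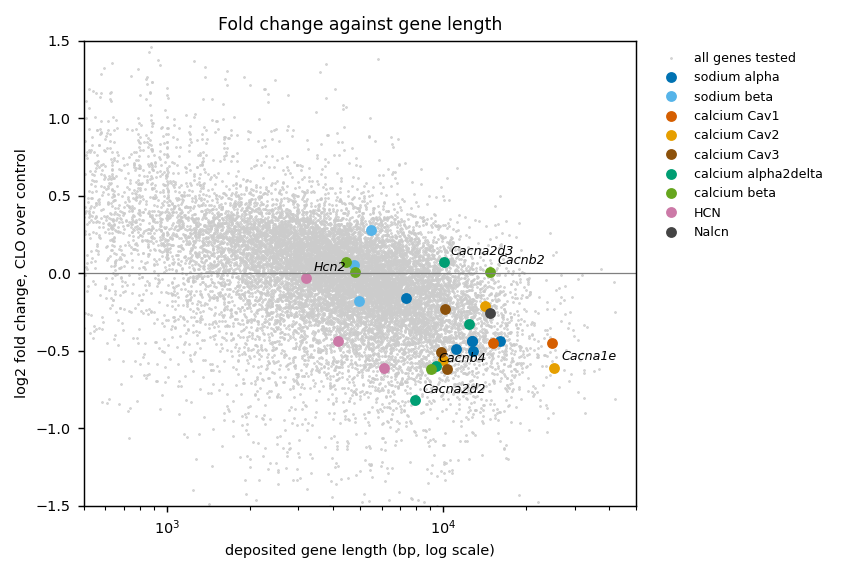
Log2 fold change of CLO over control against the deposited gene length (log scale) for all genes tested (grey) and the channel genes by subfamily (colours) (the axes leave out the outermost grey points). Cacnb2 and Cacna2d3 lie near 0 although they are long, and Cacnb4 and Cacna2d2 lie low. On the TPM scale, which is not drawn, Cacnb2 and Cacna2d3 were just below 0, as was the median of all genes. With the length trend removed, also not drawn, Cacnb2 and Cacna2d3 were at 0.37 and 0.29.

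The libraries themselves stood in an order that the groups do not fully give. The median deviation of the 32 channel genes from their own means was -0.01, 0.42 and 0.14 log2 CPM in control replicates 1, 2 and 3 and 0.11, -0.19 and -0.36 in CLO replicates 1, 2 and 3. CLO replicate 1 thus lay among the controls. Of the 32 genes, 19 were highest in control replicate 2 and 16 lowest in CLO replicate 3. The median deviation of the longest 3226 genes ran the same way, at -0.02, 0.28 and 0.11 in the controls and 0.06, -0.13 and -0.29 in CLO.

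**Figure D4:**
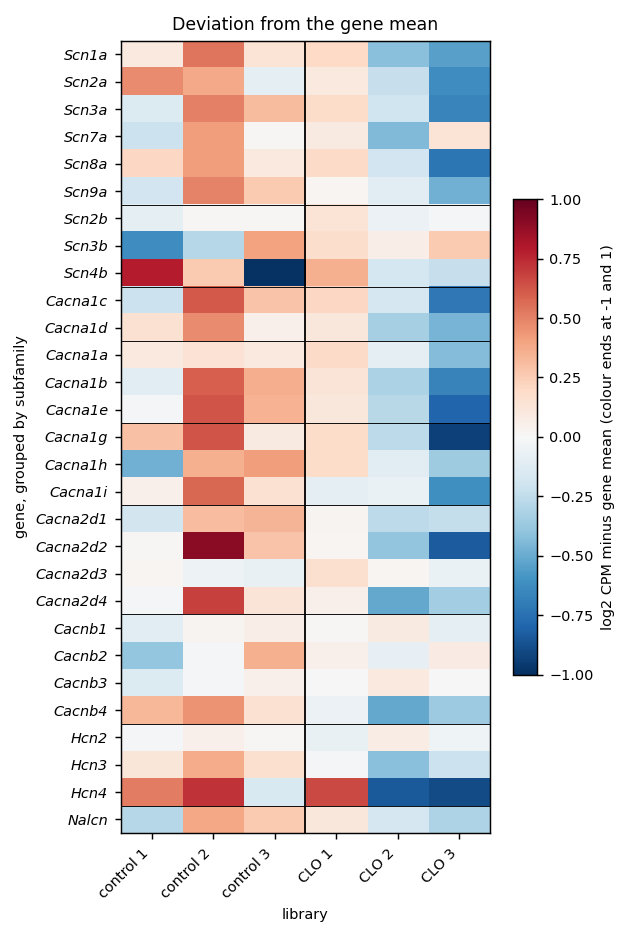
Deviation of the channel genes' log2 CPM from its mean over the 6 libraries (colour), with genes in rows by subfamily and libraries in columns. Control replicate 2 is mostly above the mean and CLO replicates 2 and 3 mostly below, while CLO replicate 1 resembles the controls.

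Most markers of neighbouring tissue also had lower values in CLO, with 0 past the adjusted threshold by edgeR. Of 16 markers of the neocortex, 15 were lower in CLO (median log2 fold change -0.62), 11 of them at an unadjusted p under 0.05, where 7.26% of all genes were. The groups were apart with CLO lower for 7 of the 16, where this held for 6.7% of all genes. The summed level of the 16 was 433 to 621 CPM in control and 314 to 462 in CLO, with none at 0. Of 9 markers of the subiculum and retrohippocampal cortex 8 were lower (median -0.42), at a summed 407 to 464 and 359 to 417 CPM. Of 18 interneuron markers 16 were lower (median -0.28), at a summed 1150 to 1520 and 1070 to 1260 CPM. With the length trend removed the medians were -0.58 (neocortex), -0.44 (subiculum and retrohippocampal cortex) and -0.22 (interneurons). Of 13 tested CA2 and CA3 markers, by contrast, 11 were higher (median 0.42, and 0.46 with the length trend removed). At an unadjusted p under 0.05 in edgeR 7 of them were higher, where 6.18% of all genes were. The groups were apart with CLO higher for 7, where this held for 7.84% of all genes. The CA2 and CA3 list summed to 670 to 809 CPM in control and 782 to 969 in CLO. Of 10 CA1 markers 6 were lower (median -0.04, and 0.12 with the length trend removed). Of 12 dentate granule markers 7 were lower (median -0.04, and 0.15 with the length trend removed). All 10 oligodendrocyte markers were lower (median -0.19), at a summed 2970 to 4550 and 2520 to 3910 CPM, and 8 of 10 microglial markers were higher (median 0.21), at a summed 556 to 578 and 605 to 667 CPM. With the length trend removed the oligodendrocyte median was -0.23 and the microglial median 0.10. Spermatid transcripts had 346 and 131 counts in control replicates 1 and 2 and 1 to 5 in each other library. Their part in the channel differences was not tested. Without control replicates 1 and 2, with control replicate 3 as the lone control, the median of the channel genes was -0.35 and 28 of 32 were below 0. In bulk tissue, fewer cells of a type and less RNA per cell cannot be told apart.

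All 7 tested sodium channel alpha genes had values below 0 (median log2 fold change -0.44, and -0.15 with the length trend removed), and none passed the adjusted threshold. Scn2a stood at 169, 158 and 114 CPM in the control libraries and at 130, 104 and 79.4 in the CLO libraries. The groups overlapped, since CLO replicate 1 lay above control replicate 3. Between groups it differed by -0.50 ± 0.20 on the log2 scale (SE, adjusted p = 0.343 by edgeR), and by -0.23 with the length trend removed.

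Scn8a was at 168, 195 and 155 CPM in control and 166, 127 and 88.3 in CLO, so CLO replicate 1 lay between the controls and the other CLO libraries lay below all of them (log2 fold change -0.44 ± 0.21, adjusted p = 0.382 by edgeR, and -0.11 with the length trend removed). Scn1a was at 32.9, 44.7 and 33.9 CPM in control and 35.3, 23.1 and 21.1 in CLO. It had the same pattern, at a log2 fold change of -0.49 ± 0.21 (adjusted p = 0.355 by edgeR) and -0.24 with the length trend removed. Scn3a and Scn9a each had a log2 fold change of -0.44 and Scn7a of -0.16, and none passed.

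The mix of alpha subunits was alike in both groups. Scn2a held 42.0% ± 4.77 of the summed alpha TPM in control and 41.6% ± 1.13 in CLO, and Scn8a held 39.5% ± 1.96 and 39.8% ± 1.93 (SD, n = 3). Scn1a held 12.3% ± 1.45 and 12.1% ± 1.21. Scn3a, Scn2a, Scn1a, Scn9a and Scn7a lie in that order on chromosome 2 between 65287462 and 66615258 (GRCm39, as in the deposited table). There is a gap between the end of Scn2a (65597791) and the start of Scn1a (66101122). Scn8a lies on chromosome 15 from 100767739 to 100943819.

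Of the 4 sodium channel beta genes, 3 had log2 fold changes above 0, with Scn2b below 0 on the TPM scale, and Scn4b was below 0. Scn3b, an immunoglobulin-fold beta subunit, was at 109, 138 and 221 CPM in control and 189, 176 and 201 in CLO, so all CLO values lay within the control range (log2 fold change 0.28 ± 0.22, adjusted p = 0.572 by edgeR). Without control replicates 1 and 2 its log2 fold change was -0.23. Scn2b, which is linked to the alpha subunit by a disulfide bond, was at 221, 236 and 237 CPM in control and 258, 225 and 233 in CLO. The groups overlapped, and the log2 fold change was 0.05 ± 0.14. On the TPM scale it was -0.08, where the median of all genes was -0.13 or -0.10 (0.1 or 1 added).

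Scn4b, the beta subunit linked to resurgent sodium current, varied most between controls. It was at 17.1, 11.8 and 4.92 CPM in control replicates 1, 2 and 3 and at 12.6, 8.72 and 8.37 CPM in CLO. All CLO values lay within the control range. Its log2 fold change was -0.18 ± 0.35 with all libraries, 0.24 without control replicate 1 and -0.54 without control replicate 3. Scn2b and Scn4b are neighbours on chromosome 9 (45029080 to 45041368 and 45049693 to 45065450, GRCm39).

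Among the calcium channel pore genes the lowest log2 fold changes were those of T-type Cacna1g and R-type Cacna1e. N-type Cacna1b and T-type Cacna1i followed, and these 4 lay within their SE of each other. With the length trend removed they were -0.42 (Cacna1g), -0.14 (Cacna1e), -0.34 (Cacna1b) and -0.30 (Cacna1i). Cacna1g, which supports burst firing and is highest in thalamus, was at 26.3, 33.2 and 22.7 CPM in control and 24.4, 17.8 and 11.1 in CLO. Its log2 fold change (CLO over control) came to -0.62 ± 0.25 (adjusted p = 0.338 by edgeR) and the groups overlapped through CLO replicate 1. Of 11 tested markers of thalamus and habenula, 8 were lower, with a median log2 fold change of -0.33 and a summed level of 120 to 163 CPM in control and 136 to 142 in CLO. Their part in the Cacna1g values was not tested.

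Cacna1i, also T-type, was at 51.4, 74.0 and 55.2 CPM in control and 46.8, 47.3 and 32.4 in CLO, so that the groups did not overlap. The groups were apart with CLO lower for 3 channel genes, Cacna1i, Cacnb4 and Hcn3, where this held for 6.7% of all genes tested, and for 0 with CLO higher, where it held for 7.84%. The log2 fold change of Cacna1i was -0.51 ± 0.19 (adjusted p = 0.321 by edgeR). Cacna1h, the third T-type gene, overlapped widely, at 38.7, 69.3 and 72.3 CPM in control and 61.4, 49.9 and 42.2 in CLO (log2 fold change -0.23 ± 0.23).

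Cacna1e, the R-type gene of dendrites and terminals, was at 96.9, 152 and 125 CPM in control and 107, 81.2 and 56.9 in CLO (log2 fold change -0.61 ± 0.23, adjusted p = 0.318 by edgeR). It is the longest channel gene at 25340 bp, and its log2 fold change was -0.14 with the length trend removed. Cacna1b, which triggers transmitter release at many terminals, was at 36.6, 59.7 and 50.8 CPM in control and 43.3, 31.8 and 24.8 in CLO (log2 fold change -0.56 ± 0.22, adjusted p = 0.337 by edgeR). Both overlapped through CLO replicate 1.

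Cacna1a, the other main channel of transmitter release, was at 69.4, 71.9 and 69.5 CPM in the control libraries, nearly level, and at 74.0, 60.8 and 48.0 in CLO. Its log2 fold change (CLO over control) came to -0.21 ± 0.17 with all libraries and 0.10 with the length trend removed. Of the L-type genes, which couple calcium entry to gene transcription, Cacna1d was at 12, 14.9 and 11.1 CPM in control and 11.6, 8.53 and 7.76 in CLO (adjusted p = 0.368 by edgeR). Its groups overlapped through CLO replicate 1. Cacna1c was at 25.5 to 45.3 CPM in control and 18.0 to 34.1 in CLO, and both L-type genes had a log2 fold change of -0.45.

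Of the 4 alpha2delta genes 3 had values below 0 (Cacna2d4 at -0.60 ± 0.37), with Cacna2d3 near 0. Cacna2d2, a high-affinity target of gabapentin, was at 11.5, 21.3 and 13.9 CPM in control and 11.5, 8.62 and 6.33 in CLO. Control replicate 1 and CLO replicate 1 were level and the other libraries were apart. Its log2 fold change was -0.82 ± 0.26 (adjusted p = 0.286 by edgeR), -0.66 with the length trend removed and -0.52 without control replicate 2. The gene spans 107276811 to 107406542 of chromosome 9 (GRCm39).

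Cacna2d3, of similar length (10051 bp against 7950 bp), was at 71.5, 68.2 and 67.2 CPM in control and 78.8, 71.6 and 67.3 in CLO, a log2 fold change of 0.07 ± 0.14. With the length trend removed it was 0.29. On the log2(TPM + 0.1) scale it was -0.06, where the median of all genes was -0.13. Cacna2d1, the other gabapentin target, was at 87.2, 123 and 126 CPM in control and 101, 82.9 and 84.0 in CLO, with overlap through control replicate 1 and a log2 fold change of -0.33 ± 0.17. Cacna2d2 held 10.8% ± 2.58 of the summed alpha2delta TPM in control and 7.03% ± 1.37 in CLO, without overlap. The exact two-sided permutation p was 0.1, the smallest possible here. Such shares were examined for every sodium, calcium and HCN channel gene without adjustment for their number, so some are likely to separate by chance.

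Cacnb4, the beta subunit whose loss causes the epileptic lethargic mouse, had the smallest p of the channel genes. It was at 62.5, 68.1 and 55.2 CPM in the control libraries and at 47.8, 34.9 and 38.6 in the CLO libraries. Every CLO library, replicate 1 included, lay below every control library. The log2 fold change was -0.62 ± 0.16, or 0.653-fold, with an adjusted p of 0.225 by edgeR. It lay between -0.76 and -0.43 in all 18 other settings and was -0.43 with the length trend removed. The gene (ENSMUSG00000017412) lies on the minus strand of chromosome 2 from 52318332 to 52566843 (GRCm39), and 3 annotated genes overlap it, all on the other strand.

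Without removal of the length trend, the other calcium channel beta genes were level. Cacnb3 was at 237, 259 and 271 CPM in control and 262, 279 and 262 in CLO, and Cacnb1 was at 133 to 150 and 134 to 152 CPM. Cacnb2 was at 33.1, 42.6 and 55.4 CPM in control and 45, 41.0 and 45.9 in CLO. Their log2 fold changes were 0.07, 0.01 and 0.01, each with an SE of 0.14 to 0.18. With the length trend removed they were 0.09 (Cacnb3), 0.04 (Cacnb1) and 0.37 (Cacnb2). All 3 were below 0 on the TPM scale, where the median of all genes was -0.13 or -0.10 (0.1 or 1 added). Cacnb4 held 7.63%, 7.58% and 5.96% of the summed Cacnb TPM in control and 5.41%, 3.79% and 4.51% in CLO, without overlap (exact two-sided permutation p of 0.1, the smallest possible here). The share of Cacnb3 was 59.2% ± 0.452 in control and 61.7% ± 1.0 in CLO (SD, n = 3), higher in CLO and also without overlap. Shares of a subfamily sum to a fixed whole, so those of Cacnb3 and Cacnb4 do not vary independently. They were taken from TPM without removal of the length trend.

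**Figure D5:**
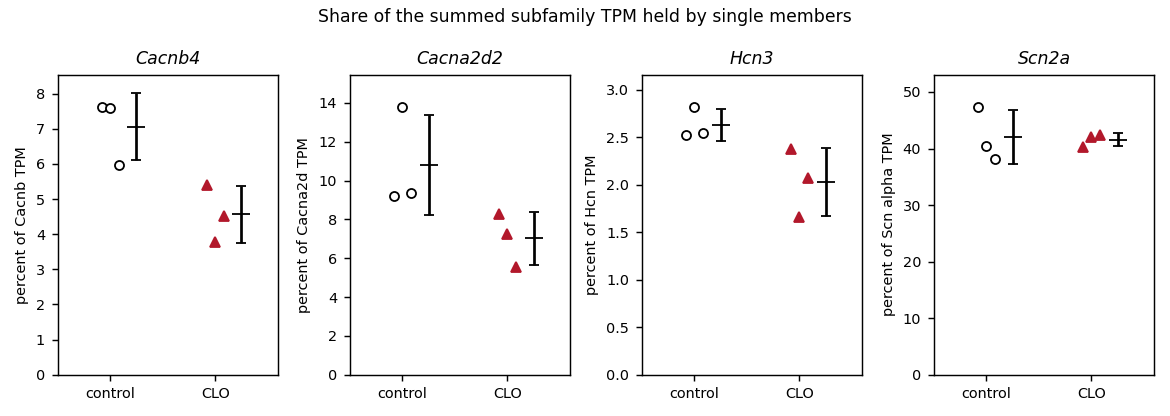
Share of the summed TPM of a subfamily held by Cacnb4, Cacna2d2, Hcn3 and Scn2a in each control (open circles) and CLO (triangles) library, with mean and SD (n = 3) beside the points. The shares of Cacnb4, Cacna2d2 and Hcn3 do not overlap between groups, those of Scn2a do. Among the shares of all sodium, calcium and HCN channel genes, those of Cacna1e (CLO lower) and Cacnb3 (CLO higher), not drawn, also do not overlap. All other gene shares overlap. Each separation has an exact two-sided permutation p of 0.1, unadjusted, so some are likely by chance among so many shares. Shares within a subfamily sum to a fixed whole and do not vary independently.

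Among the HCN genes the dominant member was level, while Hcn3 and Hcn4 had lower values. Hcn2 was at 188, 198 and 192 CPM in control and 181, 200 and 185 in CLO, a log2 fold change of -0.03 ± 0.13. It held 91.6% ± 0.725 of the summed HCN TPM in control and 93.6% ± 1.49 in CLO (SD, n = 3). Hcn2 is 3201 bp long in the deposited table.

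Hcn3 was at 6.68, 7.96 and 6.88 CPM in control and 6.05, 4.56 and 5.26 in CLO, with no overlap. It is 4154 bp long, and its log2 fold change was -0.44 ± 0.20 (adjusted p = 0.364 by edgeR) and -0.44 again with the length trend removed. Hcn3 held 2.52%, 2.82% and 2.54% of the summed HCN TPM in control and 2.37%, 1.66% and 2.07% in CLO (exact two-sided permutation p of 0.1, the smallest possible here). Hcn4, a pacemaker channel of heart and thalamus, was at 1.63, 1.91 and 0.999 CPM in control and 1.82, 0.588 and 0.562 in CLO, low and overlapping. Nalcn was at 44.3, 70.7 and 65.0 CPM in control and 58.5, 48.1 and 43.8 in CLO. Its groups overlapped, and its log2 fold change was -0.26 ± 0.19 with all libraries and 0.09 with the length trend removed.

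Partner genes of the channels gave 0 genes past the adjusted threshold by edgeR. Of 16 sodium channel partners of the axon initial segment, 15 were below 0 (median log2 fold change -0.35, median length 11661 bp), 5 of them at an unadjusted p under 0.05, where 7.26% of all genes were lower. With the length trend removed the median was -0.04 and 0 of the 16 were lower at that threshold. Ank3, which encodes ankyrin-G, the scaffold that gathers sodium channels there, was at 249 ± 54.3 CPM in the control group against 161 ± 37.0 CPM in the CLO group (SD, n = 3), with no overlap. Fgf12, an intracellular sodium channel modulator, was at 104 ± 11.3 and 77.4 ± 5.81 CPM, also with no overlap. The adjusted p by edgeR was 0.283 and 0.299. Ank3 and Fgf12 had log2 fold changes of -0.63 and -0.42, and of -0.05 and -0.17 with the length trend removed. The groups were apart with CLO lower for 2 of the 16 genes, where this held for 6.7% of all genes.

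The 3 tested genes of the NALCN complex were all below 0 (median log2 fold change -0.46, and -0.11 with the length trend removed), with Unc80 at 91.9 ± 20.3 CPM in control and 60.6 ± 14.8 in CLO (log2 fold change -0.60 ± 0.21, and -0.26 with the length trend removed) and Unc79 at 25.8 ± 5.76 and 18.8 ± 5.61. The 6 tested HCN partners had a median of -0.08. Pex5l, the TRIP8b subunit that guides HCN channels to dendrites, was at 268 ± 21 and 252 ± 30.5 CPM and is named here after its values were seen. Flna (22.1 ± 3.79 and 18.7 ± 3.74 CPM) and Cav3 (0.798 ± 0.175 and 0.580 ± 0.101 CPM) had the smallest p of that list.

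Calcium channel regulators and presynaptic tethers went both ways, with 11 of 19 tested genes below 0 and a median of -0.16. At an unadjusted p under 0.05 in edgeR, 5 were lower (7.26% of all genes) and 1 was higher (6.18%). With the length trend removed the median was 0.01. In that fit 4 were lower at the same threshold (5.58% of all genes) and 1 was higher (4.84%). Rims3, an active zone protein, averaged 51.7 ± 22.6 CPM in the control libraries and 25.0 ± 6.44 in the CLO libraries with overlap, and its log2 fold change of -1.05 ± 0.30 had an adjusted p of 0.242 by edgeR. Without control replicates 1 and 2 it was -0.08. DESeq2, edgeR without the filter on low counts and edgeR without control replicate 3 put Rims3 past the threshold, and its adjusted p over all settings ran from 2.57e-05 to 0.868. Rem2, a small GTPase that inhibits calcium channels, was higher, at 17.1 ± 4.95 and 28.1 ± 4.99 CPM with no overlap (log2 fold change 0.72 ± 0.23, adjusted p = 0.277 by edgeR). Among the gamma subunits and relatives 4 of 8 tested genes were below 0. Cacng3, which also serves AMPA receptors, was at 47.9 ± 7.02 and 32.7 ± 6.13 CPM, and Cacng5 was at 6.12 ± 0.858 and 8.55 ± 0.676 CPM, each with no overlap. Cacng5 is also on the list of CA2 and CA3 markers. Of the related lysosomal and sperm channels 3 were tested, with Tpcn2 at 0.959 ± 0.310 and 0.561 ± 0.191 CPM and Tpcn1 at 38.4 ± 7.36 and 30.7 ± 3.61 CPM.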

How the data were processed

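The deposited count table holds raw read counts per gene and library, and the authors' TPM table adds symbol, position and length. TPM recomputed from counts and length matched to within 5e-04. Upstream tools were HISAT2 2.2.0, featureCounts 2.6.0 and cutadapt 2.9 on GRCm39, per the submitters' processing notes, which give no role or order; libraries were strand-specific, per the labels' protocols. Loci without annotation (1103 rows, 0.64% to 0.78% of counts) were left out. Genes kept by filterByExpr entered edgeR 4.0.16 (R 4.3.3; TMM, robust quasi-likelihood, CLO against control, no block, two-sided, Benjamini-Hochberg over 16129 genes), with DESeq2 1.42.0 and limma 3.58.1 as alternatives. SE is that of the fitted log2 fold change. The length trend was fitted per library by lowess on log2 length. Full values are given for the 12 channel genes of smallest p, the highest of each subfamily, and Cacna1g, Scn4b, Hcn2 and Nalcn, and for 2 genes of smallest p per partner list, except that some channel genes and sequences are counted in totals but not reported here. Members and lists were chosen with earlier results of these data known. Fits were tested on simulated data. Replicate pairs differed beyond sampling noise (chi-square per degree of freedom 20.4 to 74.9).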

Additional observations from a re-analysis of the deposited data

How the results depend on the processing

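Across 18 other settings, 19 of the 32 tested channel genes never changed sign. Genes past the adjusted threshold over all genes numbered 204 by DESeq2, 3561 with quality weights and 699 with no filter, and 0 to 20 with 1 library left out. Channel genes past it as lower numbered 1, 16 and 5 in the same 3 settings, and 1 as higher with quality weights, and partner genes 1, 20 and 8, and 0 to 1 with 1 library left out. Channel genes lower at an unadjusted p under 0.05 numbered 20 with quality weights, 3 with the length trend removed and 5 with the replicate block as well, and 1 to 17 with 1 library left out. Those higher numbered 1, 1, 3 and 0 to 1. The median log2 fold change was -0.11 with the length trend removed and -0.10 with the block as well, and -0.58 to -0.26 with 1 library left out.

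Whether the replicate numbers pair the samples was not settled. Deviations from the group mean correlated at -0.157, -0.095 and 0.277 between same-numbered libraries, and at -0.376 to 0.429 between the others. With 3 libraries per group, each centred on its group mean, these correlations cannot exclude pairing. With the replicate block 0 channel genes passed, 8 were lower at an unadjusted p under 0.05, where 6.71% of all genes were, and the median was -0.45. On the TPM scale the median of all genes shifted to -0.13 (pseudocount 0.1) and -0.10 (1).

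Signs reversed as follows, as log2 fold changes of CLO over control. With quality weights Scn2b was -0.0294, Scn4b 0.0237, Cacnb2 -0.116 and Hcn2 0.0119. With no filter Cacnb1 was -0.00824 and Cacnb2 -0.00843. With the length trend removed, and then with the block as well, Cacna1c was 0.0312 and 0.0377, Cacna1a 0.102 and 0.106 and Nalcn 0.091 and 0.101, and Cacna1h was 0.0302 with both. At TPM pseudocounts of 0.1 and 1, Scn2b was -0.0831 and -0.0823, Cacna2d3 -0.0563 and -0.0524, Cacnb1 -0.120 and -0.119, Cacnb2 -0.0878 and -0.0784, and Cacnb3 -0.0579 and -0.0575. Without control replicates 1 and 2 together Scn3b was -0.225, Scn4b 1.01, Cacnb1 -0.0621, Cacnb2 -0.330 and Cacnb3 -0.0131. With 1 library left out, Scn7a ran from -0.302 to 0.0541, Scn2b from -0.00582 to 0.0891, Scn4b from -0.539 to 0.240, Cacnb1 from -0.0469 to 0.0571, Cacnb2 from -0.160 to 0.218 and Hcn2 from -0.0712 to 0.00677. The cause was not tested.

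Counts of Scn7a, Scn9a, Cacna2d4 and Hcn4 (78 to 185 over all libraries) limit their precision.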
